A study of Mus musculus with 6 samples.

Results

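The respiratory chain genes described here are the 89 genes of 12393 on the array whose single annotated symbol begins with Ndufa, Ndufb, Ndufc, Ndufs, Ndufv, Sdha, Sdhb, Sdhc, Sdhd, Uqcr, Cox4i, Cox5, Cox6, Cox7, Cox8 or Atp5, together with Cyc1 and Cycs. They were divided by symbol into 34 genes of complex I, 4 of complex II, 9 of complex III, 16 of complex IV and 17 of complex V, with cytochrome c (Cycs) and 8 assembly factors (5 Ndufaf and 3 Sdhaf genes) kept apart. Each gene was read by its brightest probe set, and 87 of the 89 passed the filter on dim genes. RNA came from mouse CD4+CD25+ regulatory T cells (Treg) of C57Bl/6 background, separated magnetically, with 3 arrays from p300-deleted cells (fl-p300/Foxp3cre) and 3 from controls (Foxp3cre, titled WT). Both groups carry the Cre recombinase driven from Foxp3, so deletion of the acetyltransferase p300 is directed to cells that express Foxp3. The labels give no age, sex or pooling of animals, nor whether each array had its own animal, so the p-values reflect sample-to-sample spread that can include technical variation.

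The respiratory chain passes electrons from NADH (complex I) and succinate (complex II) through coenzyme Q, complex III, cytochrome c and complex IV to oxygen, and ATP synthase (complex V) uses the resulting proton gradient to make ATP. Most subunits are encoded in the nucleus, and the mitochondrial genome encodes a few core subunits of every complex except complex II. Treg are known to rely on oxidative phosphorylation more than conventional effector T cells do.

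The annotation names 0 probe sets for Ep300, the gene of p300, so the deletion cannot be checked on these arrays. The T cell genes Cd3e and Cd3d read on average 11.5 and 12.4 on the log2 scale in p300-deleted cells against 11.4 and 12.3 in controls. Of 11 tested Treg and T cell genes 9 had higher values in p300-deleted cells, 6 of them without overlap between groups. In limma 0 were called higher and 3 were higher at an unadjusted p under 0.05. Over all genes tested, 10.5% were higher without overlap, 0.991% were called higher and 8.21% were higher at that unadjusted level. Among the T cell genes Cd4 was at 0.68 (SE 0.16, adjusted p = 0.0746) and Cd2, an adhesion receptor, at 0.49 (SE 0.10, adjusted p = 0.0511). The Treg factor Foxp3, read by 1 probe set, was at 2.57, 3.04 and 3.15 on the p300-deleted arrays and at 9.63, 9.35 and 9.39 on the controls (adjusted p = 4.36e-07 in limma). The p300-deleted values lie below the dim limit of 3.91, so the size of the difference is not given. Such a low reading goes against the Treg label of the p300-deleted arrays, although other Treg genes were read there. Il2ra, Ctla4 and Tnfrsf18 had means of 9.14, 10.9 and 11.0, against 8.89, 10.6 and 11.2 in controls. Ikzf2 had means of 5.26 and 4.66, with overlapping groups. Whether the 1 probe set reads Foxp3 RNA alike in both groups was not tested. Since the low reading covers all 3 arrays of the group, no result can be given without it. Markers of other cells also moved with the group. Of 7 tested plasma cell markers 5 were called higher, of 7 mast cell and basophil markers 6 and of 6 NK markers 1, where 0.991% of all genes were. Prdm1 of the plasma cell list (-0.09) and Nkg7 (-0.37) and Prf1 (-0.01) of the NK list had lower values. Of 9 myeloid markers 0 were called, but all 9 had higher values, 4 at an unadjusted p under 0.05, with list means of 0.07 to 1.31 on p300-deleted arrays and of -1.02 to -0.10 on controls (each relative to the gene's mean over the 6 arrays). Of 6 B cell markers all had lower values and 1 was called, Spib, at -0.95 (SE 0.16, adjusted p = 0.0368). Over all genes tested, 0.726% were called lower and 9.89% were lower at an unadjusted p under 0.05. Of 14 cell cycle genes 3 were called lower and 12 were lower at that unadjusted level, with a median of -0.97. Their list means were -0.64 to -0.18 on p300-deleted arrays against 0.07 to 0.98 on controls, highest on control 3. On the same scale the plasma cell list lay at 0.24 to 0.78 on p300-deleted arrays and at -0.56 to -0.46 on controls, and the mast cell list at 0.36 to 1.05 and at -0.78 to -0.60. The part of these cells in the respiratory chain values was not tested, and in bulk RNA fewer cells of a type and less RNA per cell cannot be told apart.

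Respiratory chain RNA values differed little between the p300-deleted and the control arrays. Of the 87 tested genes 0 passed an adjusted p of 0.05 in limma in either direction, where 1.72% of all 8675 genes did (0.991% higher and 0.726% lower). At so small a share, 0 calls among 87 genes say little about the members. Before adjustment, 6 genes (6.90%) had a p under 0.05, 5 higher and 1 lower, against 18.1% of all genes (8.21% higher and 9.89% lower). For 11 genes (12.6%) the groups shared no part of their range, 5 with higher and 6 with lower values in p300-deleted cells, against 23.7% of all genes (10.5% higher and 13.2% lower). Of the 1064 genes of like level (9.23 to 11.1, the quartiles of the members), 15.5% had an unadjusted p under 0.05 and 24.7% no overlap. A wider spread within groups gives a larger p. The members had a median residual SD of 0.170 against 0.153 over all genes, and its part in these shares was not tested. On the log2 scale, with control subtracted from p300-deleted, the median difference was -0.05 over the 87 genes and -0.03 over all genes, and the median size of the difference regardless of sign was 0.10 against 0.14.

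The data also give a range for the change of each gene, taken singly and without adjustment for the number of genes. For all 87 tested genes the 95% confidence interval of the difference lay between -1 and 1, that is within 2-fold either way, as it did for 94.6% of all genes tested. For 66 of them (75.9%) it lay between -0.5 and 0.5, against 62.7% of all genes. Of the 1064 genes of like level, 97.3% had the interval between -1 and 1 and 70.0% between -0.5 and 0.5. These intervals are for the brightest probe sets. A further, dimmer one of Ndufab1, picked after its value was seen, was at 1.03 (SE 0.40). A shift of 0.5 would mostly have been missed as a call: in arrays simulated from the 8675 genes of this comparison, 29.7% of genes changed by 0.5 and 81.6% of those changed by 1 were recovered. The simulated noise was independent between genes and drawn from all genes. The members had a median residual SD of 0.170 against 0.153 over all genes, so these rates are not specific to them.

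**Figure D1:**
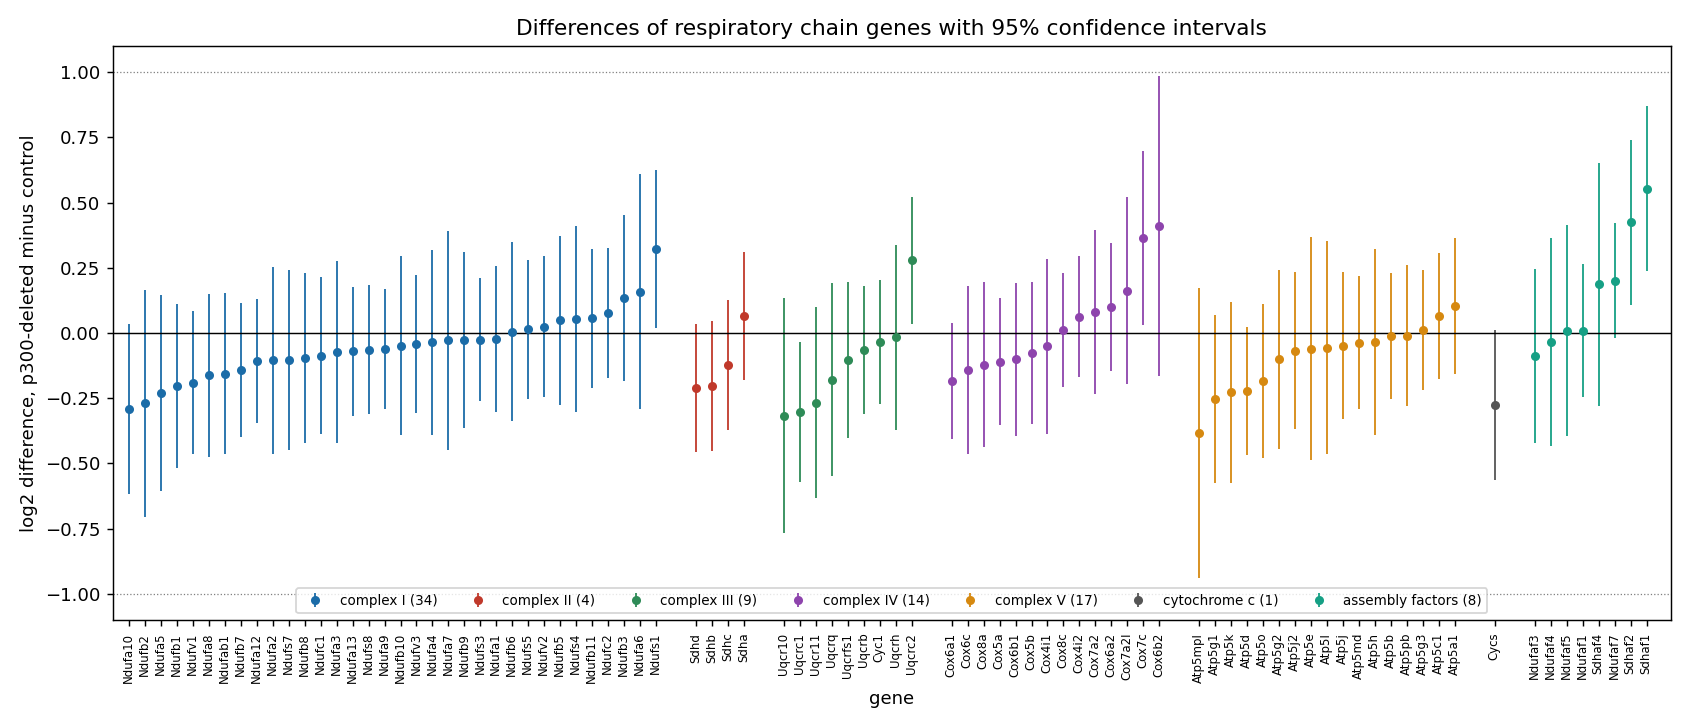
Log2 difference (p300-deleted minus control) of the 87 tested genes, grouped by complex and ordered by size, with bars for the 95% confidence interval (3 arrays per group). All intervals lie inside the dotted lines at -1 and 1, and Sdhaf1 at 0.55 has the largest difference.

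By complex, the medians were -0.06 for complex I, -0.16 for complex II, -0.10 for complex III, -0.02 for complex IV and -0.06 for complex V, and 0.10 for the assembly factors. In complex I 24 of 34 values were below 0, in complex II 3 of 4, in complex III 8 of 9, in complex IV 7 of 14 and in complex V 14 of 17. The sign of these small shifts depended on a single control array for 3 of the 5 complexes. Without control 2 the medians of complexes I, IV and V turned to 0.06, 0.05 and 0.03, and those of complexes II and III stayed below 0 at -0.08 and -0.01. Values below 0 then numbered 28 of the 78 subunit genes, down from 56. Without control 3 the medians moved the other way, to -0.11, -0.20, -0.18, -0.03 and -0.19 for complexes I to V, with 61 of the 78 values below 0. That of the assembly factors was 0.23 without control 2 and -0.02 without control 3.

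Control 2 stood apart for the respiratory chain as a whole. It held the highest of the 6 values for 69 of the 87 genes (79.3%), against 2603 of all 8675 genes and 31.9% of the 1064 genes of like level, those between 9.23 and 11.1, the quartiles of these genes. Control 3 held the lowest value for 47 genes (54.0%), against 25.9% of all genes and 24.2% of those of like level. For 43 genes (49.4%) both were true, against 11.3% of all genes.

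The mean of all tested members, relative to each gene's mean over the arrays, was -0.03, 0.00 and -0.03 on the p300-deleted arrays and -0.03, 0.23 and -0.14 on controls 1, 2 and 3. For this mean over all members, the p300-deleted arrays therefore lay inside the span of the controls. The mean of the 4 complex II genes did not overlap between groups. It was -0.08, -0.08 and -0.02 on the p300-deleted arrays and 0.02, 0.15 and 0.01 on controls 1, 2 and 3. Over the single genes, the range among the p300-deleted arrays had a median of 0.12 and that among the controls 0.45, against 0.20 and 0.32 over all genes. The controls spanned more than the p300-deleted arrays for 78 of the 87 genes (89.7%), and for 69.9% of all genes. RNA quality can be read from the Gapdh controls as the 3' value minus the 5' value, which was 0.09, 0.14 and 0.06 on p300-deleted arrays and 0.23, 0.59 and 0.21 on controls, with control 2 highest. The same difference for actin was 0.36, 0.43 and 0.29 against 0.40, 0.46 and 0.30, with overlapping groups and control 2 again highest. Probe sets for 18S ribosomal RNA averaged 7.74, 9.47 and 7.91 against 5.68, 6.03 and 8.69, with control 3 the highest of the controls. The part of the Gapdh and actin differences in the respiratory chain values was not tested. A fit with the 18S mean as a covariate turned the medians of complexes I, IV and V to 0.02, 0.07 and 0.02. Values below 0 were then 35 of the 78 subunit genes, where the main fit had 56. What the 18S values reflect was not tested.

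**Figure D2:**
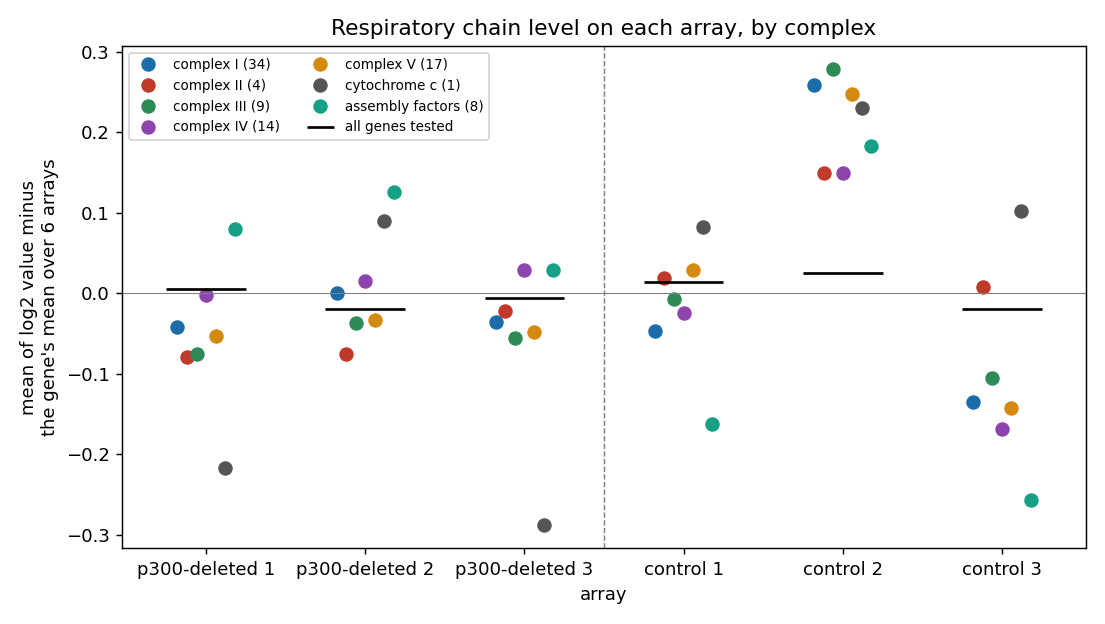
Mean over the tested genes of each complex of the log2 value minus the gene's mean over the 6 arrays, per array (points, gene numbers in the legend), with the same over all 8675 genes tested (lines). All groups lie highest on control 2, and all but complex II and cytochrome c lie lowest on control 3.

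**Figure D3:**
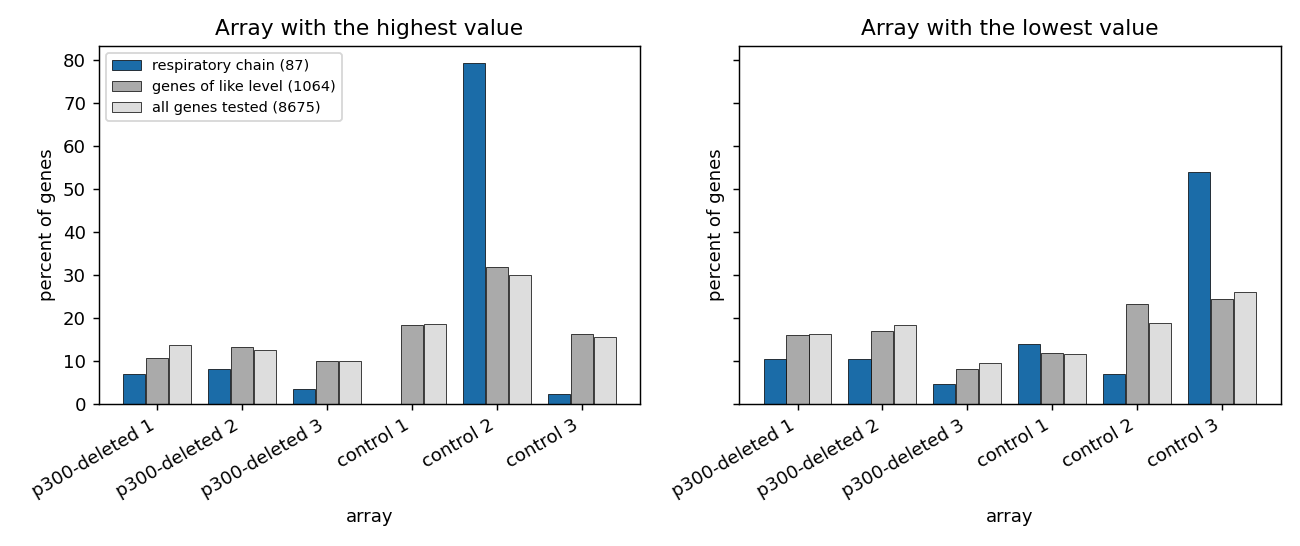
Percent of genes whose highest (left) or lowest (right) of 6 values fell on each array, for the 87 respiratory chain genes, 1064 genes of like level and all 8675 genes tested. Control 2 is highest for 79.3% and control 3 lowest for 54.0% of the respiratory chain genes.

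A few genes went against this pattern. On control 2 the lowest value of the 6 arrays was that of Ndufs1, Sdha, Atp5a1, Atp5b, Cox7c and Cox6a2. Atp5a1 and Atp5b encode the alpha and beta subunits that form the catalytic head of ATP synthase. Atp5a1 read 10.92, 10.83 and 10.82 in p300-deleted cells against 10.81, 10.57 and 10.88 in controls 1, 2 and 3. Atp5b read 11.10, 11.02 and 11.07 against 11.11, 10.94 and 11.18. Control 2 was below the other 5 arrays in both genes, by 0.24 in Atp5a1 and by 0.08 in Atp5b, where the other arrays spanned 0.16.

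Complex I takes electrons from NADH. Ndufs1, which carries iron-sulphur clusters of its NADH-oxidising arm, read 8.85, 8.79 and 8.63 in p300-deleted cells against 8.53, 8.19 and 8.58 in controls. All p300-deleted arrays lay above the controls, by a narrow margin over control 3. The difference was 0.32 (SE 0.13, 95% interval 0.02 to 0.62, adjusted p = 0.252 in limma) and did not pass the test. Ndufv1, which binds NADH and the flavin, read 9.08, 9.10 and 9.28 against 9.35, 9.50 and 9.18, with overlapping groups and a difference of -0.19 (SE 0.12, adjusted p = 0.455). Ndufs7, which holds the cluster next to coenzyme Q, was at -0.10 (SE 0.15, adjusted p = 0.779).

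The accessory subunits of complex I surround this core. Ndufa10 had the most negative value of the complex, with 9.92, 9.72 and 10.20 in p300-deleted cells against 10.13, 10.39 and 10.20 in controls. The groups overlapped, since p300-deleted 3 lay above control 1. The third arrays of the groups read alike, and the difference was -0.29 (SE 0.14, adjusted p = 0.331). Ndufb7 had no overlap, at 10.01, 10.06 and 10.08 against 10.08, 10.38 and 10.12, but the groups all but touched and the difference was -0.14 (SE 0.11, adjusted p = 0.565). Ndufa3, with values of 11.61, 11.65 and 11.64 against 11.70, 12.02 and 11.40, shows the common course in its plainest form: the p300-deleted arrays lay close together, control 2 above them and control 3 below, and the difference was -0.07 (SE 0.15, adjusted p = 0.845). Control 2 was highest for 30 of the 34 complex I genes and above control 3 for 33, by a median of 0.43. Ndufa4 bears a complex I name but its protein is now placed with complex IV; it was at -0.04 (SE 0.16, adjusted p = 0.932), and with it counted in complex IV the medians were -0.06 for complex I and -0.04 for complex IV.

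Complex II, succinate dehydrogenase, has 4 subunits and no mitochondrially encoded part. Sdhb, the iron-sulphur subunit, read 10.30, 10.37 and 10.37 in p300-deleted cells against 10.45, 10.71 and 10.49 in controls. Sdhd, a membrane anchor, read 9.10, 9.15 and 9.15 against 9.25, 9.50 and 9.28. In both genes all p300-deleted arrays lay below all controls. The differences were -0.20 (SE 0.11, adjusted p = 0.373) for Sdhb and -0.21 (SE 0.11, adjusted p = 0.352) for Sdhd, and neither passed. A further, dimmer probe set of Sdhd (mean level 5.11) was at -0.36 (SE 0.16). Sdhc, the other anchor, was at -0.12 (SE 0.11, adjusted p = 0.611). Sdha, the flavoprotein that oxidises succinate, was at 0.07 (SE 0.11, adjusted p = 0.802), with 9.75, 9.68 and 9.82 against 9.81, 9.56 and 9.69, and a further probe set of Sdha was at -0.01.

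The largest difference among all 87 genes was that of an assembly factor of complex II. Sdhaf1, which helps to place iron-sulphur clusters in Sdhb, read 10.18, 10.22 and 9.999 in p300-deleted cells against 9.65, 9.77 and 9.33 in controls. Every p300-deleted array lay above every control. The difference was 0.55 (SE 0.14, 95% interval 0.24 to 0.87), or 1.47-fold, and did not pass over all genes (adjusted p = 0.0893 in limma). Sdhaf2, which helps to attach the flavin to Sdha, read 8.48, 8.52 and 8.22 against 7.74, 8.12 and 8.08. The groups again did not overlap, and the difference was 0.42 (SE 0.14, 95% interval 0.11 to 0.74, adjusted p = 0.167). A further probe set of Sdhaf2 was at 0.48 (SE 0.10). With array weights, which give the arrays unequal influence, Sdhaf1 (0.53, adjusted p = 0.0196) and Sdhaf2 (0.59, adjusted p = 0.0214) passed, in a fit that also called 465 genes higher and 554 lower over the table.

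Of the other assembly factors, Ndufaf7, a methyltransferase for complex I, did not overlap between groups. It read 6.96, 7.02 and 6.95 in p300-deleted cells against 6.74, 6.85 and 6.74 in controls, a difference of 0.20 (SE 0.10, adjusted p = 0.323). The remaining 5 lay between -0.09 and 0.19. In all, 3 of the 8 assembly factors had higher values in p300-deleted cells without overlap, where 10.5% of all genes did.

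Complex III passes electrons from coenzyme Q to cytochrome c. Its core proteins Uqcrc1 and Uqcrc2, which sit side by side on the matrix face, had differences of opposite sign. Uqcrc1, chosen after its values were seen, read 10.43, 10.34 and 10.65 in p300-deleted cells against 10.74, 10.87 and 10.71 in controls. Uqcrc2 read 10.20, 10.34 and 10.15 against 9.86, 10.04 and 9.96. Neither gene overlapped between groups, with Uqcrc1 lower and Uqcrc2 higher in p300-deleted cells. The differences were -0.30 (SE 0.12, 95% interval -0.57 to -0.03, adjusted p = 0.229) and 0.28 (SE 0.11, 95% interval 0.04 to 0.52, adjusted p = 0.220), and neither passed. The value of Uqcrc2 depended on the probe set, since a further one (mean level 9.74) was at -0.04 (SE 0.15), and with array weights the brightest one passed (0.36, adjusted p = 0.0412).

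**Figure D4:**
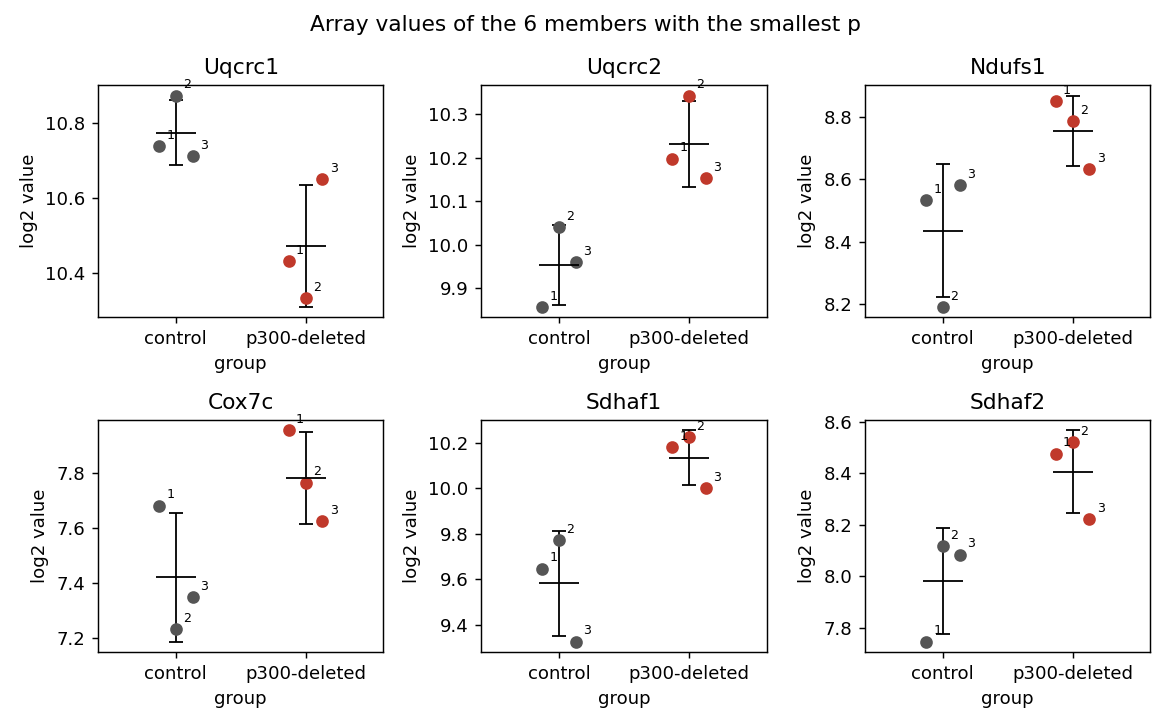
Log2 values per array (points, numbered by replicate) with mean and SD (bars, 3 arrays per group) for the 6 genes with an unadjusted p under 0.05. The groups do not overlap for Uqcrc1, Uqcrc2, Ndufs1, Sdhaf1 and Sdhaf2, and they overlap for Cox7c, where control 1 lies above p300-deleted 3.

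Among the other subunits of complex III, Uqcr10, a small subunit, had the most negative value, with 9.67, 9.64 and 9.69 in p300-deleted cells against 9.94, 10.45 and 9.57 in controls. The p300-deleted arrays lay within the span of the controls, and the difference was -0.32 (SE 0.20, adjusted p = 0.449), or -0.09 without control 2 and -0.53 without control 3. Uqcrfs1, the Rieske iron-sulphur protein, was at -0.10 (SE 0.13, adjusted p = 0.733), Cyc1, which encodes cytochrome c1, at -0.03 (SE 0.10, adjusted p = 0.906) and Uqcrb, which takes part in coenzyme Q binding, at -0.07 (SE 0.11, adjusted p = 0.799). Cycs, the mobile carrier between complexes III and IV, read 10.17, 10.48 and 10.10 against 10.47, 10.62 and 10.49. Here p300-deleted 2 lay just above control 1 and the other arrays of its group below all controls, with a difference of -0.28 (SE 0.13, 95% interval -0.56 to 0.01, adjusted p = 0.294). The further probe sets of Cycs were at -0.05 (SE 0.10, mean level 9.35) and -0.19 (SE 0.14, mean level 8.51).

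Complex IV reduces oxygen, and several of its subunits exist as tissue isoforms, so the array also shows which isoforms were read in these cells. Values of different probe sets cannot be ranked as RNA levels, but they can be set against probe sets for Bacillus transcripts that match no mouse RNA, whose medians were 2.18 to 2.34 per array. Cox7a1, the muscle isoform, read 2.67 to 3.18 and Cox8b, the muscle isoform in rodents, 3.27 to 3.97, and both were left out as dim (limit 3.91). Cox4i2, an isoform of lung and low oxygen, read 4.12 to 4.32, Cox6b2, a testis isoform, 3.98 to 5.12, Cox6a2, the heart and muscle isoform, 5.43 to 5.73, and Cox8c, a testis isoform, 5.88 to 5.98. The ubiquitous isoforms Cox4i1, Cox6a1, Cox6b1, Cox7a2 and Cox8a had group means from 9.98 (Cox8a in p300-deleted cells) to 12.8 (Cox6a1 in controls).

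None of the isoforms tested passed between the groups. Cox6a1 read 12.63, 12.56 and 12.68 in p300-deleted cells against 12.76, 12.85 and 12.82 in controls. The groups did not overlap, and the difference was -0.18 (SE 0.10, adjusted p = 0.365). Its muscle counterpart Cox6a2 was at 0.10 (SE 0.11, adjusted p = 0.678). Cox4i1 was at -0.05 and Cox4i2 at 0.06, Cox6b1 at -0.10 and Cox8a at -0.12, Cox8c at 0.01 and Cox7a2 at 0.08, with adjusted p of 0.678 to 0.970 for these and Cox6a2. Cox6b2 had the most positive value of the complex, with 4.79, 4.87 and 5.04 against 4.38, 5.12 and 3.98, but the controls spanned more than the difference of 0.41 (SE 0.25, 95% interval -0.16 to 0.98, adjusted p = 0.444). Without control 2 it was 0.72 and without control 3 it was 0.15. Cox7a2l, which joins complexes III and IV in supercomplexes, was at 0.16 (SE 0.16, adjusted p = 0.640). Its further probe sets were at 0.36 (SE 0.13, mean level 10.9 against 11.0 for the brightest) and 0.26 (SE 0.18).

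Cox7c, a small subunit with no isoform, had the smallest p of complex IV. It read 7.96, 7.77 and 7.63 in p300-deleted cells against 7.68, 7.23 and 7.35 in controls. The groups overlapped at p300-deleted 3 and control 1, and the difference was 0.36 (SE 0.15, 95% interval 0.03 to 0.70, adjusted p = 0.242). A further, dimmer probe set (mean level 5.30) was at 0.29 (SE 0.21).

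In complex V, the ATP synthase, Atp5mpl, a small membrane subunit, had the most negative value. It read 10.55, 10.30 and 10.40 in p300-deleted cells against 10.87, 11.32 and 10.21 in controls, so that the p300-deleted arrays lay between controls 1 and 3 and the difference of -0.38 (SE 0.24, 95% interval -0.94 to 0.17, adjusted p = 0.456) was within the spread of the controls. It was -0.13 without control 2 and -0.68 without control 3. Atp5d, the delta subunit of the rotating stalk, read 10.89, 10.91 and 11.11 against 11.18, 11.27 and 11.12. It had no overlap, though p300-deleted 3 and control 3 all but met, and a difference of -0.22 (SE 0.11, adjusted p = 0.327). Of the catalytic head, Atp5a1 was at 0.10 (SE 0.11, adjusted p = 0.691) and Atp5b at -0.01 (SE 0.11, adjusted p = 0.971).

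The c subunit, whose ring turns with the proton flow, is encoded by Atp5g1, Atp5g2 and Atp5g3, which specify the same mature protein with different targeting peptides. Atp5g1 read 8.93, 9.13 and 9.03 in p300-deleted cells against 9.29, 9.53 and 9.03 in controls, and its difference was -0.25 (SE 0.14, adjusted p = 0.393). Control 3 read like the p300-deleted arrays. Atp5g2 and Atp5g3 lay nearer 0, Atp5g2 at -0.10 (SE 0.15, adjusted p = 0.782) and Atp5g3 at 0.01 (SE 0.10, adjusted p = 0.973). Over the 17 genes, control 2 was highest for 14 and control 3 lowest for 11.

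Promoters were examined because nuclear respiratory genes are known targets of the factors NRF1, GABP and YY1. Windows of 300 bases (250 before to 50 after the gene start, RefSeq, GRCm38.p6) were held for 74 of the 89 genes and searched on both strands for CCGGAAG (GABP and other ETS factors), GCGC followed by any 1 base and TGCGC (NRF1) and AANATGGC (YY1). The ETS letters were in 20 of these 74 genes, the NRF1 letters in 17 and the YY1 letters in 17, against 21.0%, 12.1% and 10.3% of the tested genes with a window and 9.93%, 5.19% and 6.96% of all genes with a window. The YY1 letters were in 11 of 31 complex I genes and 4 of 15 complex V genes and in 0 of 3, 0 of 5 and 0 of 11 genes of complexes II, III and IV. The NRF1 letters were in 6 of 15 genes of complex V and 4 of 31 of complex I. A match says only that the letters are in the window.

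Of the 6 genes with an unadjusted p under 0.05, 4 had a window, and the 3 with a match are printed as examples. Any of the 3 sets of letters was in 47 of the 74 members (63.5%) and in 36.8% of the tested genes with a window. A match is thus common among the members, and a link with a small p was not tested. The matches are in capitals, with the ETS letters in Sdhaf1 and Sdhaf2, the YY1 letters also in Sdhaf2, and the NRF1 letters in Uqcrc1. Windows lie at chr7:30322326-30322625 (minus strand) for Sdhaf1, chr19:10525160-10525459 (minus strand) for Sdhaf2 and chr9:108936398-108936697 (plus strand) for Uqcrc1, and each is written 5′ to 3′ along the gene.
Sdhaf1: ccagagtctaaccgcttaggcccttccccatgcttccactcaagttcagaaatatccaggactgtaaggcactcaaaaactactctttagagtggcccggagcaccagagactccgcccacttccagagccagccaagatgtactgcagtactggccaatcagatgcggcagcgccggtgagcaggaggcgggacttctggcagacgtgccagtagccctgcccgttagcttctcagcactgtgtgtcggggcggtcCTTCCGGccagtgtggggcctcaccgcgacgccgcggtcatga
Sdhaf2: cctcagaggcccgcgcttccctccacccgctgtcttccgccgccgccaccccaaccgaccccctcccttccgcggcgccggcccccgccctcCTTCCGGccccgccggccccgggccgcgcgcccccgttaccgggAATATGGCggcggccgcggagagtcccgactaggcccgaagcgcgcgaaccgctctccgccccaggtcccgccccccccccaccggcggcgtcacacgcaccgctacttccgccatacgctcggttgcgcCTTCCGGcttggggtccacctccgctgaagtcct
Uqcrc1: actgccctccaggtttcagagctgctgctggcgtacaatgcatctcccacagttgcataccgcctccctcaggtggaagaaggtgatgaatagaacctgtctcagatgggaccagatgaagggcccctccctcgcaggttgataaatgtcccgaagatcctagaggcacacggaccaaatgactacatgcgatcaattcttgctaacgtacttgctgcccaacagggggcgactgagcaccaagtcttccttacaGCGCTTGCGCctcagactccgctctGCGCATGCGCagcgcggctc
Uqcrc1 held the NRF1 letters at 2 places, Sdhaf2 the ETS letters at 2 places and the YY1 letters at 1, and Sdhaf1 the ETS letters at 1. The window of Cox7c held none of the 3.

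The factors themselves did not pass. Gabpa, the DNA-binding subunit of GABP, read higher in all p300-deleted arrays, with a difference of 0.52 (SE 0.17, adjusted p = 0.165), and its partner Gabpb1 was at -0.08, Nrf1 at 0.12 and Yy1 at 0.12. Of 16 tested regulators of mitochondrial biogenesis 0 passed in limma (2 higher at an unadjusted p under 0.05), with a median of -0.02. Mterf4, which acts on the mitochondrial ribosome, was the one with the smallest p, at 0.35 (SE 0.11, adjusted p = 0.146). Tfam, which packages and transcribes mitochondrial DNA, was at 0.08, and Ppargc1a, the coactivator PGC-1alpha, was dim at means of 2.79 and 2.92.

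In the neighbouring mitochondrial lists 0 genes passed in limma, where 1.72% of all genes did, which says little for lists of this size. At an unadjusted p under 0.05, 8.21% of all genes were higher and 9.89% lower, and the lists are small. Lower without overlap were 6 of 19 import genes and 3 of 10 coenzyme Q and haem genes, against 13.2% of all genes. So were 2 of 15 tricarboxylic acid cycle genes, 2 of 10 carrier and antioxidant genes and 1 of 16 assembly genes for complexes III and IV. Higher without overlap were 0 import genes, 0 coenzyme Q and haem genes and 1 tricarboxylic acid cycle gene, against 10.5% of all genes. Of 15 tested tricarboxylic acid cycle genes 1 was higher at an unadjusted p under 0.05, Suclg2, a subunit of succinyl-CoA ligase, at 0.51 (SE 0.16, adjusted p = 0.159), and the median was -0.05. Of 19 protein import genes 4 were lower at that level, with a median of -0.13, and the channel protein Tomm40 had the smallest p, at -0.40 (SE 0.11, adjusted p = 0.123). Of 10 genes of coenzyme Q and haem synthesis 2 were lower, with a median of -0.18, and Coq7, a hydroxylase of coenzyme Q synthesis, was at -0.44 (SE 0.11, adjusted p = 0.0829). Control 2 was the highest array also for the list means of import genes (0.26), coenzyme Q and haem synthesis (0.22), further assembly factors of complexes I and II (0.21) and assembly of complexes III and IV (0.18).

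Of 16 assembly genes for complexes III and IV 1 was lower at an unadjusted p under 0.05, Lrpprc, which stabilises mitochondrial messenger RNA, at -0.30 (SE 0.10, adjusted p = 0.165), and the list median was 0.02. Of 5 further assembly factors of complexes I and II and 3 genes of ATP synthase assembly and inhibition 0 were past an unadjusted p of 0.05, with medians of -0.15 and 0.07 and the smallest p for Acad9 (-0.20) and Atpaf2 (0.07). Of 10 carrier and antioxidant genes 1 was lower, Slc25a5, which exchanges ADP for ATP across the inner membrane, at -0.28 (SE 0.11, adjusted p = 0.220), with a list median of -0.10. The only mitochondrially encoded subunit read by a probe set with 1 symbol was ND5 of complex I, which was lower on all p300-deleted arrays, at means of 11.9 against 12.3 and a difference of -0.41 (SE 0.15, adjusted p = 0.198).

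Probe sets of the same gene gave a further check. Of the 47 members with several probe sets, 16 had a further probe set above the dim limit with the opposite sign, among them Atp5a1 (0.10 and -0.07) and Cox7a2 (0.08 and -0.09).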

How the data were processed

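The values deposited for the 6 arrays are log2 per probe set, made with RMA (version not given in the sources used here), per the submitters' processing notes. This method quantile normalizes the arrays, so it hides a change in total RNA. The table has 22690 probe sets (64 controls), of which 20380 carry 1 gene symbol. Probe sets with several symbols were left out, 8 of them with a matching symbol. The brightest probe set stood for each of 12393 genes, and the dimmest 30% (below 3.91) were left out, leaving 8675. The p300-deleted and control arrays were compared by a two-sided moderated test in limma 3.58.1 (lmFit, eBayes; R 4.3.3) without covariates, and p-values were adjusted by Benjamini-Hochberg over all 8675. Precision is limited by having 3 arrays in each group. The members, lists and tests were chosen with earlier results of these data known. Named by rule were members past the threshold, in each complex the gene with the highest value, the largest differences and the smallest p, isoform families, all of complex II, Cyc1, Cycs and the catalytic core, and from each related list the smallest p. Sdhaf1, Sdhaf2, Ndufaf7, Ndufb7, Uqcrc1, Cd4, Cd2 and Spib were chosen after their values were seen. Other genes of the related lists were also named outside this rule, among them Gabpa, Gabpb1, Nrf1, Yy1, Tfam and Ppargc1a. In the self-test on simulated data, 20 sets of 200 changed genes, 4.54% of calls were unchanged genes. Alternatives covered the dim filter, normalization, probe sets, variance, array weights, the replicate number, an 18S covariate and each array left out.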

Additional observations from a re-analysis of the deposited data

How the results depend on the processing

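With 3 arrays per group, small shifts go uncalled, and values of dim probe sets understate changes. Under all alternatives run, 0 members were called lower. Members called higher were 0, except 3 with array weights (Sdhaf1, Sdhaf2 and Uqcrc2) and 1 (Sdhaf1) at an adjusted p under 0.10. Over all genes, 86 were called higher and 63 lower. The counts were 10 and 5 with the 18S covariate, 465 and 554 with array weights, 197 and 202 at an adjusted p under 0.10, and 58 and 37 with the mean of all probe sets. Without p300-deleted 1, 2 and 3 they were 20, 17 and 17 higher and 15, 5 and 13 lower, and without control 1, 2 and 3 they were 4, 64 and 139 higher and 5, 54 and 91 lower. The medians of the complexes moved by less than the spread between arrays of a group. That spread includes the arrays left out, so this does not show that the medians are stable. The median of complex I turned to 0.0061 with array weights. Those of complexes I, IV and V turned to 0.02, 0.07 and 0.02 with the 18S covariate. They also changed sign without control 2, as did that of the assembly factors without control 3.

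The replicate numbers gave no sign of pairing: deviations from the group means correlated at -0.07, 0.12 and -0.12 for numbers 1, 2 and 3, and 1 of 3 p300-deleted arrays correlated best with its own number. With 3 arrays per group, these values cannot exclude that arrays of the same number were prepared together. With the replicate block 56 genes were called higher and 42 lower, and 0 members.

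Single values under each alternative were followed only for the tested members named above. Over all 78 subunit genes, 56 values were below 0 in the main fit, 35 with the 18S covariate and 45 with array weights. Among the members followed, signs turned for some uncalled ones, most of them near 0 but also Atp5mpl, the most negative of the 87 at -0.38. With the 18S covariate these were Atp5g2 (0.11), Atp5g3 (-0.062), Atp5mpl (0.0081), Cox4i1 (0.14), Cox6b1 (0.016), Cox8a (0.053), Ndufa3 (0.10), Ndufa4 (0.045) and Ndufs7 (0.083). With array weights they were Ndufa4 (0.042), Sdha (-0.024), Uqcrb (0.025) and Uqcrfs1 (0.019). With a further quantile normalization they were Atp5b (0.015), Atp5g3 (-0.030) and Cox8c (-0.017), with median centring Atp5g3 (-0.012) and Cox8c (-0.012), and with the mean of all probe sets Cox7a2 (-0.0060). With each array left out, values ran from -0.078 to 0.039 for Atp5b, -0.26 to 0.030 for Atp5g2, -0.035 to 0.044 for Atp5g3, -0.20 to 0.080 for Cox4i1, -0.20 to 0.023 for Cox6b1, -0.014 to 0.21 for Cox7a2, -0.013 to 0.039 for Cox8c, -0.069 to 0.032 for Cyc1, -0.23 to 0.081 for Ndufa3, -0.16 to 0.12 for Ndufa4 and -0.25 to 0.042 for Ndufs7. The cause was not tested.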

Other observations

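A further probe set of Ndufab1, the acyl carrier protein of complex I, had a difference of 1.03 (SE 0.40, unadjusted p = 0.0308 among all probe sets), at a mean level of 6.94, while the brightest probe set of the gene was at -0.16. It was picked after its value was seen.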
